A study of Mus musculus with 7 samples.

Results

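Type I interferon-stimulated genes were followed through the nonparenchymal fraction of the liver, which is made by setting hepatocytes aside, in WT mice and in mice lacking the phosphatase Shp2 in Kupffer cells. The 39 genes were chosen by symbol from the table of raw counts, all 39 had a row among its 20354, and all 39 passed the filter on low counts that kept 14077 genes for testing. RNA was sequenced from 4 WT libraries and 3 knockout libraries, each from untreated mice of the C57BL/6J strain at 2 months of age. The knockout line, Shp2f/f with Clec4f-Cre+/-, loses Shp2 where Clec4f, a lectin gene of resident Kupffer cells, is active. The labels do not say which floxed or Cre alleles the WT mice carry, nor that each library came from a separate mouse. The titles of the knockout libraries all name Shp2 and were followed, although the genotype entry names Shp1 for replicate 1, Shp2 for replicate 2 and Shp3 for replicate 3.

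Type I interferons bind a receptor made of Ifnar1 and Ifnar2, and the kinases Jak1 and Tyk2 then phosphorylate transcription factors, Stat2 among them. Stat2 and Irf9 are subunits of the factor ISGF3, which binds the interferon-stimulated response element in the promoters of its target genes. The targets include sensors of foreign nucleic acid, proteins that block viral replication, and feedback proteins that damp the pathway. In the liver, Kupffer cells, plasmacytoid dendritic cells, endothelium and hepatocytes all respond to interferon, so a level in the whole fraction does not say which cells carry the transcript.

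The core of the response element, a TTTC and a second TTTC with any 2 bases between them, or a GAAA pair spaced alike on the other strand, was searched in RefSeq promoter windows on GRCm38.p6, each running from 250 bases before to 50 bases after a gene's start. Of the 39 genes, 30 matched a window by symbol, and 13 of them (43.3%) held the core, against 3.99% of 27025 genes. A core lay wholly before the start in 9 of the 30 (30.0%), against 3.46% of the 27025. In Ifih1, Ddx58, Ifitm3 and Eif2ak2 the cores lay only after the start. Matches are shown for 6 genes, chosen to include both wide and narrow differences between the groups, 5′ to 3′ on the gene's strand, with the response element core in capitals. Isg15 holds 3 overlapping cores within 1 stretch (chr4:156200855-156200916, minus strand), and Oas1a holds 2 (chr5:120907526-120907565, minus strand). Oas3 (chr5:120777705-120777754, minus strand) and Rsad2 (chr12:26456543-26456592, minus strand) hold 1 each. Ifit1 (chr19:34640765-34640833, plus strand) and Ifit3 (chr19:34583353-34583436, plus strand) hold 2 separate cores each.
Isg15: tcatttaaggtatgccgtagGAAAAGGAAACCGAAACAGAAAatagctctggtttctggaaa
Oas1a: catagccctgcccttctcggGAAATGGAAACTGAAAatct
Oas3: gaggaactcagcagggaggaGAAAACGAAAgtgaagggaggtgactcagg
Rsad2: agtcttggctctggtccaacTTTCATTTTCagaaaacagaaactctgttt
Ifit1: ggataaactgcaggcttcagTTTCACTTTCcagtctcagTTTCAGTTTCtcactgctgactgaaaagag
Ifit3: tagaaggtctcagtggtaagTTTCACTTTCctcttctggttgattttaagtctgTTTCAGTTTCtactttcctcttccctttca

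The log2 fold change, knockout over WT, had a median of 0.31 in the 13 genes with a core before or after the start. In the 17 matched genes without a core the median was 0.37. The 9 genes with no matched window are left out of both, among them Dhx58, Zbp1, Oas2, Mx1 and Mx2, which are 5 of the 10 genes at unadjusted p under 0.05, so the medians do not describe the whole set. A match is a description of the sequence and not a measured binding site.

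Counts summed to between 11678385 and 32003205 per library. Knockout replicate 3 stood out with 7.54% of its counts in the ribosomal RNA gene Rn18s, against 0.0527% to 0.122% in the others, and knockout replicate 2 with 33.2% in mitochondrial genes, against 17.3% to 22.4%. WT replicate 2 held the most transcript of sinusoidal endothelium, at a sum of 16969 CPM (counts relative to the scaled total of the library) over 14 markers against 6150 to 9730 CPM elsewhere. WT replicate 2 and knockout replicate 3 lay apart on the first 2 principal components, so counts below are also given without both. Ptpn11, the gene of Shp2, was at 75.3, 95.5, 80.7 and 82.9 CPM in WT and 70.0, 79.5 and 86.2 CPM in knockout libraries, a weak check because Kupffer cells are 1 of many cell types here and the count covers the whole gene. Clec4f ranged from 1386 to 2656 CPM in WT and from 436 to 865 CPM in knockout libraries, with no overlap (log2 fold change -1.69 ± 0.39, SE; edgeR, adjusted p = 0.487). In a bulk fraction, fewer cells of a type and less RNA per cell cannot be told apart.

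Most of the interferon-stimulated genes had higher values in the knockout fraction, by a modest amount and mostly less so in knockout replicate 1 than in the other knockout libraries. Of 39 genes, 34 had a log2 fold change above 0, where 51.7% of all tested genes did, and the median of the 39 was 0.37 against 0.01 for all tested genes. None passed the adjusted threshold of 0.05 in edgeR's quasi-likelihood test, which called 0 of 39 and 0% of all genes, and the smallest adjusted p among them was 0.592 (Phf11d). At an unadjusted p under 0.05 there were 10 of 39 genes, beside 4.62% of all genes. All 10 were higher and 0 lower, where 2.27% of all genes were higher and 2.35% lower at that level. They were Phf11d, Mx1, Isg15, Dhx58, Mx2, Oas2, Oasl2, Parp12, Ifi44 and Zbp1. The knockout libraries lay wholly above the WT libraries in 6 genes (Dhx58, Mx1, Mx2, Parp12, Phf11d and Sp100) and wholly below in 0, where 3.03% of all genes lay wholly above and 3.05% wholly below.

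These counts moved with single libraries. The 10 genes at unadjusted p under 0.05 became 6 without WT replicate 1, 3 or 4 or knockout replicate 2, when 1.82% to 2.72% of all genes were higher at that level. They became 4 without knockout replicate 3, when 2.83% of all genes were higher. They became 16 without knockout replicate 1 and 17 without WT replicate 2, when 2.56% and 1.99% of all genes were higher at that level. Without WT replicate 2 and knockout replicate 3 together there were 13, beside 3.62% of all genes, and the median was 0.39. The genes lying wholly above WT numbered 15 without WT replicate 2 and 19 without knockout replicate 1, beside 4.95% and 5.70% of all genes, and 6 without knockout replicate 3, beside 8.73%. The direction of the median held in each of these cases, between 0.27 without knockout replicate 3 and 0.47 without WT replicate 2.

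**Figure D1:**
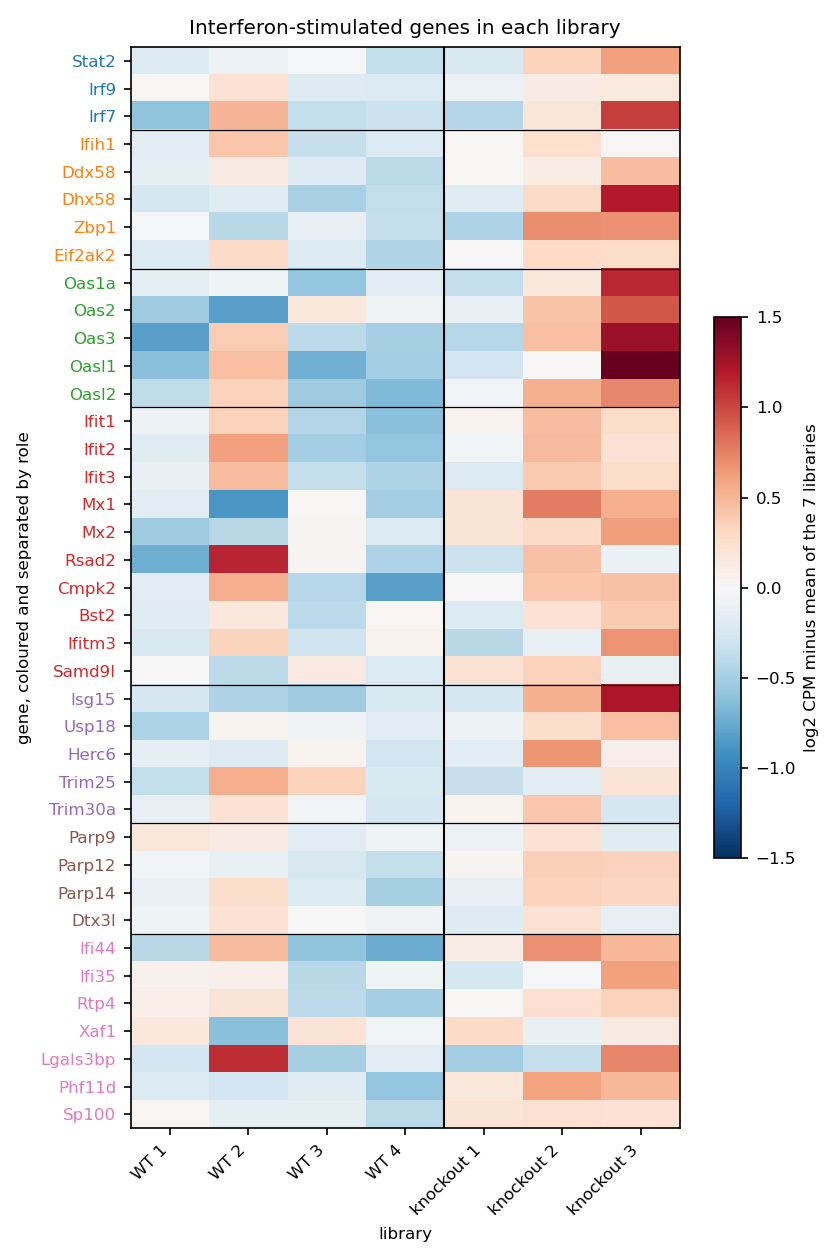
Each cell gives log2 CPM of 1 gene in 1 library minus that gene's mean over the 7 libraries, with genes in rows by role and libraries in columns, and a vertical line between WT and knockout. Red is above and blue below the mean; knockout replicates 2 and 3 are mostly red, while knockout replicate 1 is near 0 in most rows, and WT replicate 2 is the reddest WT column.

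The spread within each group was uneven between libraries. Averaged over the 39 genes after subtracting each gene's own mean, log2 CPM was -0.22, 0.12, -0.23 and -0.33 in WT replicates 1 to 4. It was -0.11, 0.30 and 0.47 in knockout replicates 1 to 3. Knockout replicate 1 thus lay inside the WT range, below WT replicate 2, while the other knockout libraries lay above all WT libraries. Knockout replicate 1 held the lowest knockout value in 34 of 39 genes, and WT replicate 2 the highest WT value in 26 of 39. The matching shares over all tested genes were not computed, so these counts within a group have no background beside them. The high endothelial sum of WT replicate 2 and the high mitochondrial share of knockout replicate 2 moved with these values, and their part in them was not tested.

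Counted over all 7 libraries, knockout replicate 3 held the highest value in 16 of the 39 genes, and in 26.7% of all tested genes. Knockout replicate 2 was highest in 14 of 39, beside 10.1% of all genes. WT replicate 2 was highest in 8 of 39, beside 23.7% of all genes, and knockout replicate 1 in 1, beside 8.95%. WT replicates 1, 3 and 4 were highest in 0, beside 7.83%, 9.02% and 13.7% of all genes. The lowest value was in WT replicate 4 in 17 of 39 genes, beside 11.5% of all genes. Hepatocyte transcripts remained in the fraction, and WT replicate 4 had the highest sum of 11 hepatocyte markers, 61667 CPM against 19129 to 41188 CPM in the others. With library sizes computed without mitochondrial, Rn18s, hepatocyte and erythroid genes, 10 genes were again at unadjusted p under 0.05 and the median was 0.37. Those genes stayed among the counts, and the TMM factors computed afterwards largely offset a change in library size. That fit therefore cannot show what these transcripts contribute, and their part was not tested. By the counts of highest values above, the high values came mainly from a pair of knockout libraries, 1 of which, knockout replicate 3, was also often extreme among all genes.

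Gene by gene, the SD of log2 CPM had a median of 0.29 in WT and 0.28 in knockout libraries, beside 0.32 in each group over all tested genes. The SD was larger in the knockout group for 21 of 39 genes, beside 6922 of all 14077 tested genes. Oasl1 had the widest knockout spread (SD 1.06) and Rsad2 the widest WT spread (SD 0.83), while Sp100 was nearly constant over the knockout libraries (SD 0.01).

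**Figure D2:**
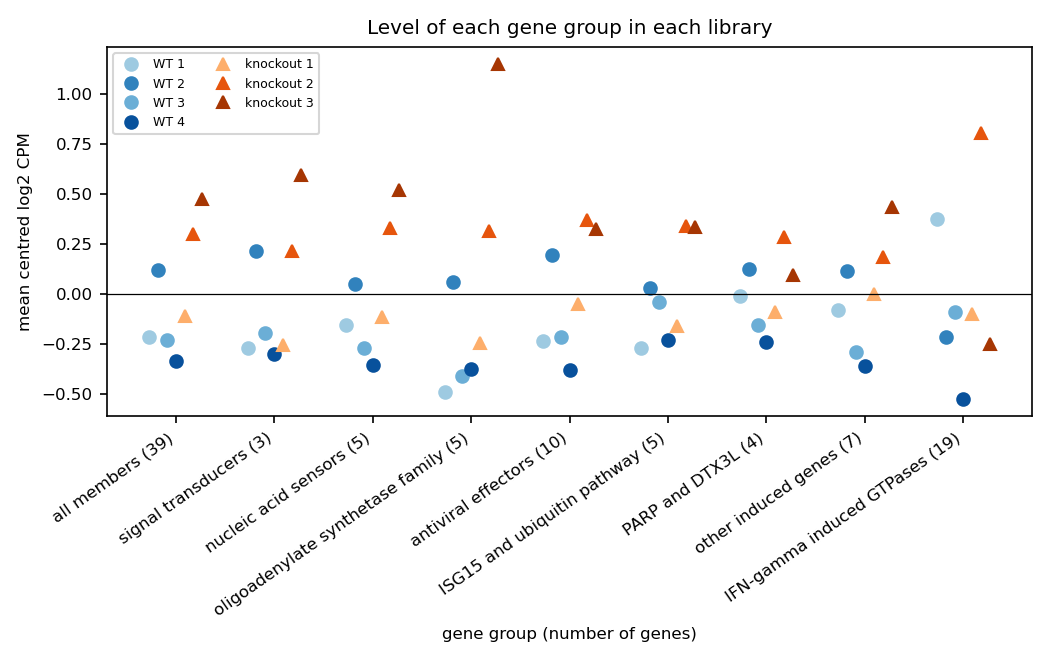
Points give the mean centred log2 CPM of each gene group in each library, WT as circles and knockout as triangles, with the number of genes in brackets. Knockout replicate 3 reaches 1.15 in the oligoadenylate synthetase family, while in the interferon-gamma induced GTPases knockout replicate 2 is highest at 0.81 and knockout replicate 3 is at -0.25.

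The 3 signal transducers differed among themselves. Stat2, a subunit of ISGF3, was at 84.7, 92.7, 96.4 and 76.4 CPM in WT and 83.8, 125 and 151 CPM in knockout libraries, so that knockout replicates 2 and 3 lay above WT and replicate 1 within it (log2 fold change 0.46 ± 0.22, SE; edgeR, adjusted p = 0.956; 0.25 without knockout replicate 3). Irf7, which amplifies transcription of interferon genes, was at 75.5, 164, 89.1 and 92.1 CPM in WT and 85.1, 131 and 235 CPM in knockout libraries. The groups overlapped, with WT replicate 2 above a pair of the knockout libraries (0.52 ± 0.36, SE; edgeR, adjusted p = 0.956). Without knockout replicate 3 the log2 fold change of Irf7 was 0.04. Irf9, the DNA-binding subunit of ISGF3, was at 83.0, 95.5, 72.1 and 70.8 CPM in WT and 77.0, 89.3 and 90.8 CPM in knockout libraries. Its groups overlapped throughout (0.09 ± 0.18, SE; edgeR, adjusted p = 0.974), and an exon of Irf9 overlaps one of Rnf31 in GENCODE M21, so reads there may be shared or dropped.

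Among the 5 nucleic acid sensors all log2 fold changes were above 0, with a median of 0.34. Dhx58 encodes LGP2, a relative of RIG-I that modulates the other sensors without signalling itself. It was at 14.6, 15.4, 12.5 and 13.5 CPM in WT and 15.4, 21.4 and 39.8 CPM in knockout libraries. Its knockout replicate 1 just cleared the highest WT library, and replicate 3 was far above the rest (0.86 ± 0.30, SE; edgeR, adjusted p = 0.946; 0.39 without knockout replicate 3). Zbp1, a sensor of Z-form nucleic acid that can start necroptosis, was at 27.2, 20.9, 25.6 and 21.7 CPM in WT and 20.2, 45.1 and 44.6 CPM in knockout libraries. For Zbp1 the lowest value of all was in knockout replicate 1 and the other knockout values were clearly above WT (0.62 ± 0.28, SE; edgeR, adjusted p = 0.956).

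Ddx58, which encodes the RNA sensor RIG-I, was at 67.5, 81.3, 64.4 and 56.0 CPM in WT and 75.1, 79.8 and 102 CPM in knockout libraries (0.34 ± 0.20, SE; edgeR, adjusted p = 0.956). Eif2ak2 encodes PKR, which halts translation on binding double-stranded RNA, and was at 44.4, 62.5, 44.6 and 37.4 CPM in WT and 51.3, 63.2 and 61.9 CPM in knockout libraries (0.31 ± 0.21, SE; edgeR, adjusted p = 0.956). Both overlapped only through WT replicate 2, the highest WT library for each. Ifih1, the gene of the long double-stranded RNA sensor MDA5, was at 57.8, 85.8, 50.6 and 55.5 CPM in WT and 65.7, 76.5 and 64.9 CPM in knockout libraries. WT replicate 2 was the highest library of all for Ifih1 (0.15 ± 0.21, SE; edgeR, adjusted p = 0.958).

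Active enzymes of the oligoadenylate synthetase family make the messenger that activates RNase L, and the 5 genes of the family had a median log2 fold change of 0.74, the highest of the 7 roles with all libraries. Without knockout replicate 3 the median was 0.33, below the 0.34 of the antiviral effectors. Oas2 was at 40.8, 33.5, 65.9 and 56.9 CPM in WT and 54.4, 79.4 and 113 CPM in knockout libraries (0.74 ± 0.29, SE; edgeR, adjusted p = 0.956). Knockout replicate 1 lay among the WT values of Oas2, and the other knockout libraries were above them. Without knockout replicate 3 Oas2 was at 0.44 and Oasl2 at 0.52. Oasl2 was at 59.8, 98.7, 53.6 and 49.2 CPM in WT and 75.7, 112 and 128 CPM in knockout libraries (0.69 ± 0.28, SE; edgeR, adjusted p = 0.956). Only WT replicate 2 kept the Oasl2 groups from separating.

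Oas1a was at 29.1, 30.6, 21.3 and 28.6 CPM in WT and 24.8, 35.6 and 70.0 CPM in knockout libraries. Oas3 was at 7.34, 16.9, 9.88 and 9.17 CPM in WT and 9.63, 17.7 and 31.9 CPM in knockout libraries. Oasl1, which in mice represses translation of Irf7 and so acts as feedback, was at 5.22, 11.0, 4.90 and 5.63 CPM in WT and 6.60, 8.05 and 26.0 CPM in knockout libraries. In all 3 genes knockout replicate 3 was the highest library by a wide margin. Their log2 fold changes were 0.66 ± 0.32, 0.86 ± 0.40 and 1.01 ± 0.48 (SE; edgeR, adjusted p = 0.956 each), and without knockout replicate 3 they were 0.13, 0.33 and 0.12. That library's high share of Rn18s moved with these values, and its part in them was not tested.

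The antiviral effectors spread from -0.15 (Rsad2) to 0.86 (Mx1), with 9 of 10 above 0 and a median of 0.30. Mx1, a GTPase that blocks influenza virus in mice with an intact gene and is disrupted in C57BL/6, was at 16.8, 10.2, 19.0 and 13.2 CPM in WT and 21.5, 31.9 and 27.4 CPM in knockout libraries. Its groups did not overlap (0.86 ± 0.25, SE; edgeR, adjusted p = 0.782), and leaving out any 1 library kept it between 0.71 and 1.00. Mx2, its paralog, was at 8.04, 8.75, 11.96 and 10.01 CPM in WT and 13.4, 14.3 and 18.0 CPM in knockout libraries. The Mx2 groups did not overlap either (0.65 ± 0.23, SE; edgeR, adjusted p = 0.951; 0.52 to 0.77 with 1 library left out).

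Ifit1, which binds viral RNA lacking a full cap, was at 29.4, 39.5, 22.8 and 20.1 CPM in WT and 32.1, 42.9 and 37.6 CPM in knockout libraries. WT replicate 2 lay among the knockout values and the other WT libraries below them (0.42 ± 0.25, SE; edgeR, adjusted p = 0.956). Rsad2, the gene of viperin, with 1 core in its window, was at 27.7, 101, 47.4 and 33.3 CPM in WT and 36.6, 62.2 and 43.0 CPM in knockout libraries. WT replicate 2 stood far above every other library for Rsad2, whose log2 fold change was -0.15 ± 0.41 (SE; edgeR, adjusted p = 0.980) and 0.39 without that library. The remaining effectors, Ifit2, Ifit3, Cmpk2, Bst2, Ifitm3 and Samd9l, lay between 0.14 (Ifitm3) and 0.43 (Cmpk2). Reads of Ifit3 may be shared with its near copy Ifit3b. Ifitm3, a membrane protein gene that hinders viral entry, turned to -0.25 without knockout replicate 3.

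In the ISG15 and ubiquitin pathway 4 of 5 genes were above 0. Isg15, the ubiquitin-like modifier whose window holds the 3 overlapping cores shown above, was at 15.9, 13.7, 13.1 and 16.1 CPM in WT and 15.7, 27.5 and 43.8 CPM in knockout libraries. WT values were tight and knockout replicate 1 sat among them, while the other knockout libraries were well above (0.98 ± 0.30, SE; edgeR, adjusted p = 0.827; 0.55 without knockout replicate 3). Usp18, which strips ISG15 from proteins and blocks signalling at Ifnar2 as feedback, was at 17.8, 25.5, 23.8 and 22.1 CPM in WT and 23.4, 29.5 and 33.8 CPM in knockout libraries. Usp18 thus overlapped through knockout replicate 1 alone (0.37 ± 0.21, SE; edgeR, adjusted p = 0.956).

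Herc6, the main ligase for ISG15 in mice, was at 30.9, 30.0, 35.6 and 28.2 CPM in WT and 30.6, 54.4 and 36.1 CPM in knockout libraries. Its difference (0.37 ± 0.22, SE; edgeR, adjusted p = 0.956) rested on knockout replicate 2, without which it was 0.09. Trim25, a ubiquitin ligase that acts on RIG-I, was at 129, 242, 211 and 141 CPM in WT and 131, 148 and 191 CPM in knockout libraries, and Trim30a, a feedback gene of Toll-like receptor signalling in mice, at 175, 221, 185 and 159.7 CPM and 197, 253 and 160.1 CPM. The groups of both overlapped, with log2 fold changes of -0.21 ± 0.27 and 0.13 ± 0.23 (SE; edgeR, adjusted p = 0.956 and 0.969). Reads of Trim30a may be shared with its close paralogs. The feedback genes Oasl1, Usp18 and Trim30a thus ranged from 0.13 to 1.01, with none past the adjusted threshold. Both ends moved with single libraries: Oasl1 was at 0.12 without knockout replicate 3 and Trim30a at -0.062 without knockout replicate 2. Usp18 stayed between 0.25 and 0.50 with any 1 library left out.

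Parp9 and Dtx3l encode partners in 1 ubiquitin ligase complex and were level between the groups within their spread. Parp9 was at 119, 115, 93.9 and 101 CPM in WT and 99.8, 122 and 93.2 CPM in knockout libraries (-0.03 ± 0.19, SE; edgeR, adjusted p = 0.986). Dtx3l was at 74.0, 90.1, 77.3 and 74.9 CPM in WT and 67.7, 91.1 and 71.5 CPM in knockout libraries (-0.04 ± 0.18, SE; edgeR, adjusted p = 0.983). Exons of this pair overlap on opposite strands in GENCODE M21 and the library kit does not mark strand, so reads there cannot be assigned to either. Parp12, a mono-ADP-ribosyltransferase, was at 86.0, 82.0, 74.8 and 68.9 CPM in WT and 90.6, 113 and 113 CPM in knockout libraries. Its groups did not overlap (0.43 ± 0.18, SE; edgeR, adjusted p = 0.956). Parp14, another enzyme of that class, was at 182, 235, 169 and 138 CPM in WT and 179, 248 and 245 CPM in knockout libraries (0.30 ± 0.24, SE; edgeR, adjusted p = 0.956), with WT replicates 1 and 2 reaching the knockout range.

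**Figure D3:**
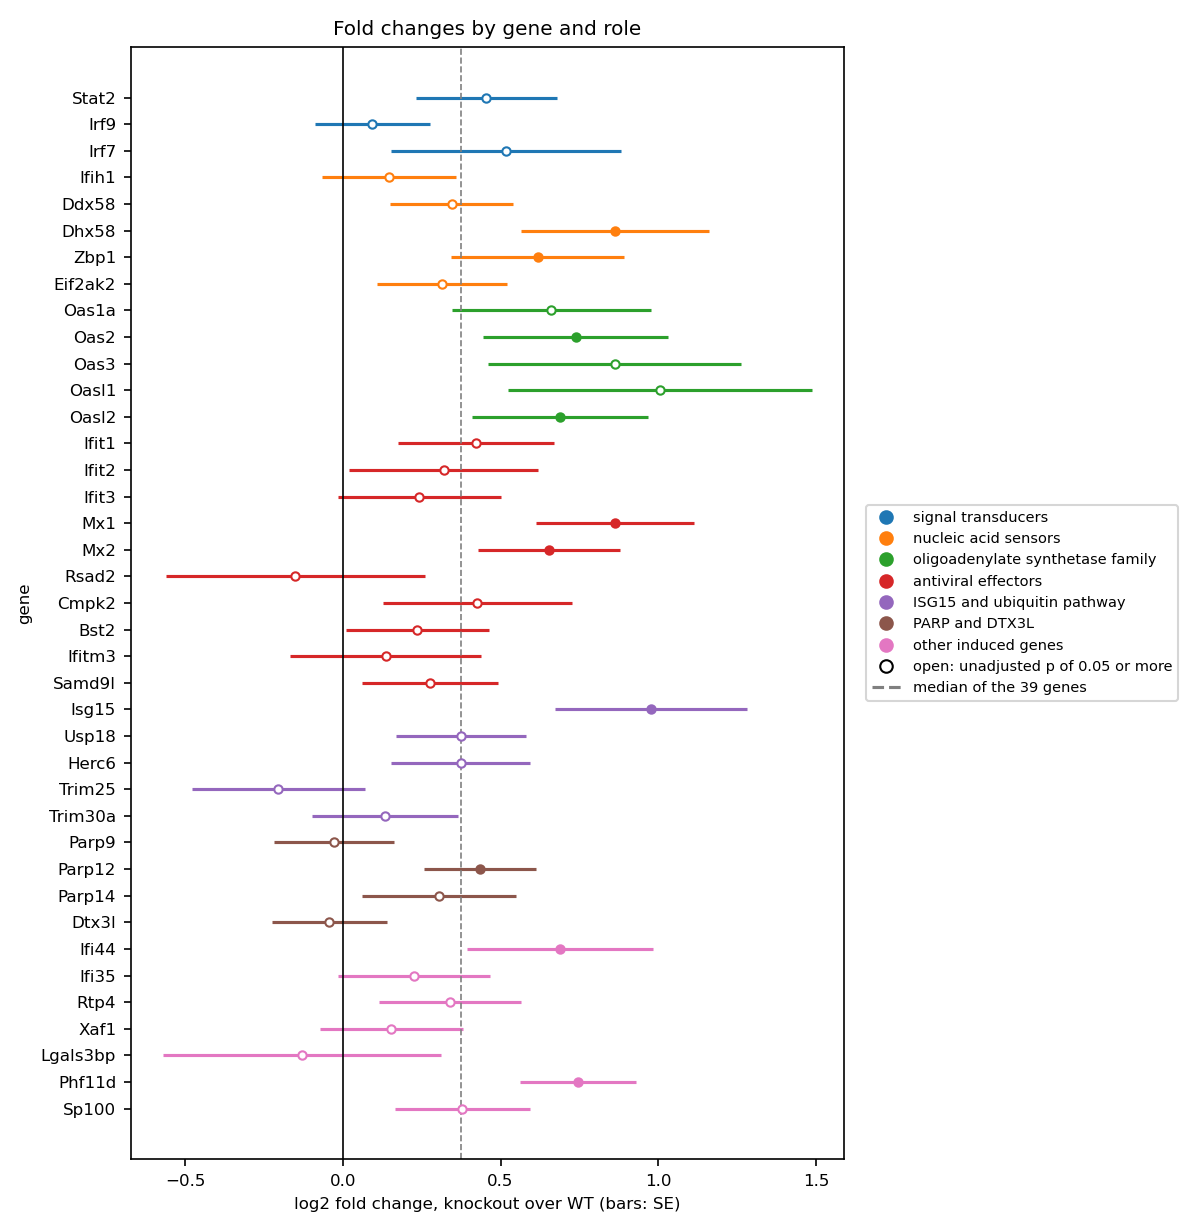
Points give the log2 fold change of each gene, knockout over WT, with bars for the SE, coloured by role. Filled points have an unadjusted p under 0.05; 34 of 39 lie right of 0, and the dashed line marks the median of all 39, 0.37.

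Among the remaining 7 induced genes, Phf11d, which encodes a PHD finger protein, had the smallest p of all 39. It was at 39.5, 37.8, 40.6 and 30.5 CPM in WT and 51.7, 69.9 and 65.0 CPM in knockout libraries, a fold change of 1.68 with no overlap. Its log2 fold change was 0.75 ± 0.18 (SE; edgeR, unadjusted p = 0.00215, adjusted p = 0.592) and lay between 0.64 and 0.86 with any 1 library left out. Sp100, a component of nuclear bodies, was at 292, 259.6, 261 and 217 CPM in WT and 332, 339 and 333 CPM in knockout libraries. All 3 knockout values lay close together above WT (0.38 ± 0.21, SE; edgeR, adjusted p = 0.956).

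Ifi44 was at 42.3, 78.2, 37.0 and 33.7 CPM in WT and 60.9, 90.8 and 79.6 CPM in knockout libraries, with WT replicate 2 again inside the knockout range (0.69 ± 0.29, SE; edgeR, adjusted p = 0.956). Lgals3bp, which encodes a secreted galectin-binding glycoprotein, was at 145, 380.4, 125 and 157 CPM in WT and 122, 138 and 292 CPM in knockout libraries. The 2 high libraries for Lgals3bp, WT replicate 2 and knockout replicate 3, came from different groups (-0.13 ± 0.44, SE; edgeR, adjusted p = 0.981), and its log2 fold change was 0.38 without the first and -0.63 without the second. Ifi35, Rtp4 and Xaf1 had log2 fold changes from 0.15 to 0.34, but Ifi35 was at -0.070 without knockout replicate 3 and Xaf1 at 0.0018 without WT replicate 2.

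**Figure D4:**
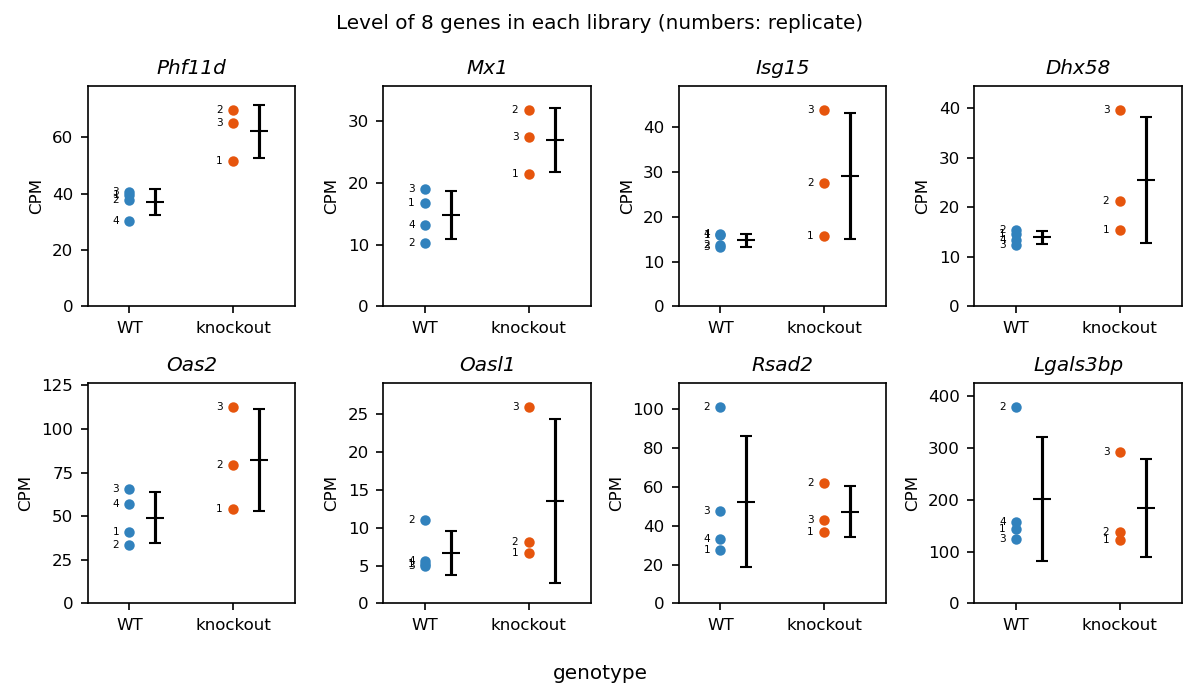
CPM of 8 genes in each library, with the replicate number beside each point and the mean with SD bars to the right. Phf11d and Mx1 separate the groups, Isg15, Dhx58, Oas2 and Oasl1 are led by knockout replicate 3, and Rsad2 and Lgals3bp are led by WT replicate 2.

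Genes upstream of the response had medians near 0. Of 8 receptor and JAK-STAT genes, 4 had a higher and 4 a lower value in the knockout group, the median was -0.03 (log2), and 0 reached an unadjusted p under 0.05. The receptor genes Ifnar1 (0.08 ± 0.17) and Ifnar2 (0.01 ± 0.22), Tyk2 (0.45 ± 0.27) and the interferon lambda receptor gene Ifnlr1 (-0.62 ± 0.47, under 1 CPM in every library) were all short of the threshold (log2, SE; edgeR, adjusted p = 0.956 to 0.999). Of 15 genes that lead to interferon production, 10 were above 0 with a median of 0.02, and 1 of 15 had an unadjusted p under 0.05, beside 4.62% of all genes. This was Ikbke, a kinase that activates Irf3 and Irf7, at 14.4, 8.44, 18.9 and 15.6 CPM in WT and 18.9, 26.6 and 27.3 CPM in knockout libraries (0.76 ± 0.28, SE; edgeR, adjusted p = 0.956). The signalling adaptor Traf3 was at 0.40 ± 0.19 (SE; edgeR, adjusted p = 0.956), with knockout libraries wholly above WT. Of 20 type I and III interferon genes listed, 19 had no row among the counts under the symbols used, so their levels could not be read. Ifnk held 0 to 2 counts per library.

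Among 9 negative regulators, the median was 0.20 and 0 had an unadjusted p under 0.05. Pias1, which encodes a SUMO ligase, was at 56.5, 82.0, 60.5 and 53.5 CPM in WT and 51.4, 50.4 and 49.5 CPM in knockout libraries (-0.32 ± 0.19, SE; edgeR, adjusted p = 0.956), and lay wholly below WT. Irf2, which competes at the response element, was at -0.36 ± 0.23 (SE; edgeR, adjusted p = 0.956) and overlapped.

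Paralogs of the 39 genes had values in the same range as the genes themselves. Of 19 tested, 15 were above 0, the median was 0.30 and 5 of 19 had an unadjusted p under 0.05, all higher, beside 2.27% of all genes higher at that level, with 0 past the adjusted threshold. Phf11b was at 26.7, 29.7, 25.1 and 25.5 CPM in WT and 33.5, 49.1 and 38.5 CPM in knockout libraries (0.59 ± 0.19, SE; edgeR, adjusted p = 0.839), and did not overlap. Oas1g was at 12.9, 10.7, 11.8 and 13.5 CPM in WT and 13.6, 20.4 and 42.7 CPM in knockout libraries (1.06 ± 0.34, SE; edgeR, adjusted p = 0.857), again highest in knockout replicate 3. The other 3, Phf11a (0.77), Parp10 (0.85) and Oas1b (1.05), are named after their values were seen. The Phf11 and Oas1 genes are near copies of each other, and how the counting treated reads they share is not known, so their values are not separate evidence.

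A second list of interferon-stimulated genes, with the interferon-gamma induced GTPases taken out, had 34 of 38 above 0, a median of 0.22 and 3 of 38 at unadjusted p under 0.05, all higher, beside 2.27% of all genes higher at that level. Ifi27l2a, a relative of human IFI27, was at 78.0, 50.8, 77.3 and 109 CPM in WT and 147, 254 and 271 CPM in knockout libraries, a fold change of 2.84 with no overlap (1.51 ± 0.30, SE; edgeR, adjusted p = 0.393). Ms4a4c was at 0.63 ± 0.26 (SE; edgeR, adjusted p = 0.956) and overlapped. Uba7, which encodes the activating enzyme for ISG15 and is named after its value was seen, was at 0.68 ± 0.31 (SE; edgeR, adjusted p = 0.956) and overlapped too. Ms4a4c is also a monocyte marker.

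The GTPases induced mainly by interferon gamma had 16 of 19 above 0 and a median of 0.33. At unadjusted p under 0.05 there was 1 of 19, Gbp11 (1.42 ± 0.52, SE; edgeR, adjusted p = 0.956), a share close to the 4.62% of all genes. The knockout libraries lay wholly above WT for Gbp11 and for Gbp9 (0.47 ± 0.22), 2 of 19 beside 3.03% of all genes. The mean centred level of the GTPases was 0.37, -0.21, -0.09 and -0.53 in WT replicates 1 to 4 and -0.10, 0.81 and -0.25 in knockout replicates 1 to 3. The high libraries for the GTPases were thus knockout replicate 2 and WT replicate 1, whereas for the oligoadenylate synthetase family knockout replicate 3 was highest at 1.15 and WT replicate 1 lowest at -0.49. The difference between these patterns was not tested.

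Markers of cells that respond to or make interferon were read beside these values. The summed level of 14 markers of monocytes and recruited macrophages was 893 to 1176 CPM in WT and 1014 to 1773 CPM in knockout libraries, highest in knockout replicate 2. A large part of that highest sum is Plac8, at 1058 CPM in knockout replicate 2. Plac8 was at 524 and 478 CPM in knockout replicates 1 and 3 and at 255 to 572 CPM in WT. Sums without Plac8 were not computed, so the rank of knockout replicate 2 may rest on it. Of the 14, 3 were higher at unadjusted p under 0.05 (Cx3cr1, Plac8 and Ms4a4c), beside 2.27% of all genes, and the median over the list was -0.01 (log2). The sum of 12 markers of plasmacytoid dendritic cells was 449 to 529 CPM in WT and 451 to 559 CPM in knockout libraries, also highest in knockout replicate 2. Markers of Kupffer cells summed to 4929 to 9907 CPM over 12 genes in WT and 3662 to 4821 CPM in knockout libraries. A large part of the sum is Clec4f, the gene that drives the Cre, at 1386 to 2656 CPM in WT and 436 to 865 CPM in knockout libraries. Sums without Clec4f were not computed, so the gap between the groups may rest on it. Of these 12, 6 were lower at unadjusted p under 0.05, beside 2.35% of all genes, 7 lay wholly below WT, beside 3.05%, and the median was -0.51 (log2). Of 13 T and NK cell markers, 12 had a lower value in the knockout group. At unadjusted p under 0.05, 2 of the 13 were lower, beside 2.35% of all genes. Among sinusoidal endothelium markers 2 of 14 were above 0, with a median of -0.21 (log2). Among hepatocyte markers 1 of 11 was above 0, also with a median of -0.21. Over all tested genes 51.7% were above 0. At unadjusted p under 0.05, 0 endothelial markers and 1 hepatocyte marker were lower. No marker in these lists was at 0 in all libraries. The part of these cells in the values of the interferon-stimulated genes was not tested.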

How the data were processed

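One table, deposited by the authors, holds raw read counts by gene symbol with a column for each library. Per the submitters' processing notes, the genome was GRCm39 and the tools were STAR 2.7.10a, featureCounts 2.0.3, FastQC 0.11.9 and SAMtools 1.9. Settings and annotation: not given in the sources used here. Per the labels' protocols, total RNA went into TruSeq v2 libraries. Genes were kept by filterByExpr (minimum count 10, minimum total 15), which left 14077 of 20354. The main test was edgeR 4.0.16 in R 4.3.3 (robust glmQLFit, glmQLFTest, TMM factors, group as the only term), with Benjamini-Hochberg adjustment over all tested genes at 0.05. SEs come from the fold change and the F statistic, CPM uses TMM-scaled library sizes, and log2 CPM a prior count of 2. No label says that libraries come from separate animals, so p-values reflect a spread that may be technical. Library pairs differed beyond counting noise. A count of 0 allows up to 3 counts, or 0.0937 to 0.257 CPM. The scripts were tested on simulated data.

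The genes, their roles, the other lists and the tests were chosen with earlier results of these data known. All genes of a role group of 5 or fewer are given in full, and in larger groups the 3 with the smallest p and the 1 with the largest. In each other list the 2 with the smallest p are named, with Ifnar1 and Ifnar2; 1 further gene of the rule is not reported here. Of genes in the other pathway lists, 23 had no row among the counts under the symbols used and were not analysed here. Alternatives were DESeq2 1.42.0, limma 3.58.1 voom without and with quality weights, other scalings and filters, and leaving out libraries.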

Additional observations from a re-analysis of the deposited data

Results flagged for a closer look

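Dixon's test at the 95% level was applied to the 4 WT values of each of the 39 genes and of the level of the whole set and its 7 roles, 47 in all, and 2 stood out, where chance gives about 1 in 20. Lgals3bp was at 380 CPM in WT replicate 2, against 125 to 157 CPM in the other WT libraries. Oasl1 was at 11.0 CPM in WT replicate 2, against 4.90 to 5.63 CPM in the others. Both are the highest WT value, in the library richest in sinusoidal endothelial markers.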

How the results depend on the processing

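None of the 39 genes was called under any alternative tried (0 throughout). Over all genes, where the main count was 0, DESeq2 called 66, voom with quality weights 9, library size only 3, no filter 3, and the fit without WT replicate 2 and knockout replicate 3 called 2; in every fit that left out 1 library the count was 0, as it was in edgeR at an adjusted threshold of 0.1. The smallest adjusted p of the 39 genes in any alternative was 0.0793 (Phf11d, DESeq2). Genes of the set at unadjusted p under 0.05 ranged from 4 to 17 with 1 library left out, all higher. In those fits 1.82% to 2.83% of all genes were higher at that level. Under the other models, scalings and filters except quality weights there were 7 to 13, all higher, beside 1.51% to 2.61% of all genes higher. With quality weights there were 14, when 6.03% of all genes were higher. Genes whose groups did not overlap numbered 3 with library size only, when 1.76% of all genes lay wholly above. They numbered 17 without WT replicate 2 and knockout replicate 3, when 12% of all genes lay wholly above. With 1 library left out they numbered 6 to 19, when 4.95% to 8.73% of all genes lay wholly above. All of them lay above WT except without knockout replicate 2, where 6 of 7 did. The number above 0 lay between 34 and 38 and the median between 0.27 and 0.47. Rsad2 turned upward with voom (0.012), with quality weights (0.27), without WT replicate 2 (0.39) and without that library and knockout replicate 3 (0.45); 1 library left out gave -0.41 to 0.39. Lgals3bp ran from -0.63 to 0.38 with 1 library left out and Trim30a from -0.062 to 0.28. Below 0 were also Ifitm3 (-0.25) and Ifi35 (-0.070) without knockout replicate 3, and Xaf1 (-0.010) and Ifitm3 (-0.035) with quality weights, and Ifitm3 (-0.11), Ifi35 (-0.020) and Xaf1 (-0.011) without WT replicate 2 and knockout replicate 3. Parp9 and Dtx3l, near 0, changed sign: with quality weights they were 0.099 and 0.039, without WT replicate 2 and knockout replicate 3 they were 0.086 and 0.072, Parp9 with upper quartile factors was 0.010, and with 1 library left out Parp9 ran from -0.16 to 0.05 and Dtx3l from -0.19 to 0.03. The cause was not tested. No paired analysis was possible because the labels give the groups no shared replicate numbers. The lowest count of any of the 39 genes was 59 (Oasl1, WT replicate 3).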

Other observations

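The response element core, 2 copies of TTTC with 2 bases between them on either strand of the same promoter windows, was in 10 of 11 matched interferon-gamma induced GTPase genes and in 10 of 18 matched paralogs. It was in 0 of 6 matched receptor and JAK-STAT genes, beside 3.99% of all genes. These are counts of letters in RefSeq windows and say nothing of binding in these cells.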
